A study of Mus musculus with 16 samples.

Results

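The CD28 family co-receptors are the T cell surface receptors encoded by Cd28, Icos, Ctla4, Pdcd1 and Btla, of which the first pair stimulate and the other 3 inhibit. They were taken by gene identifier from the deposited table of read counts, as 5 of its 55573 genes, and all 5 had enough counts to be tested. The libraries came from OT1 CD8 T cells on the C57BL/6 background, whose transgenic antigen receptor recognises a peptide of ovalbumin. The sample titles give 4 groups of 4 libraries: Foxp3UP and MockUP, which form the UP arm, and Foxp3DN and MockDN, which form the DN arm. All the cells had been transferred into tumour-bearing mice, some of them, per the design text, as a mixture of Foxp3UP and Mock cells in the same recipients. They were sorted from tumour suspensions 5 days later as live cells bearing CD8 together with CD45.1, CD90.1 or both, CD90.1 being an allelic form of the product of Thy1. The labels give neither the meaning of UP and DN nor the way in which Foxp3 was changed nor the age of the mice, so these are names only. They also do not say whether libraries of a group came from separate mice, so the p-values measure the spread between these libraries, which may be technical.

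Co-receptors of this family set how a T cell reads the signal of its antigen receptor. CD28 and CTLA-4 share the ligands CD80 and CD86 on antigen-presenting cells, and CTLA-4 binds them more tightly, so it competes with CD28 and can strip the ligands from the other cell. ICOS has a ligand of its own and is raised on activated cells, PD-1 (Pdcd1) recruits phosphatases after binding PD-L1 or PD-L2, and BTLA binds the receptor HVEM (Tnfrsf14). Foxp3 is the transcription factor that marks regulatory T cells, which are known for high CTLA-4 and ICOS.

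In the UP arm Icos and Ctla4, one of each kind, were 2.04-fold and 2.01-fold higher in Foxp3UP than in MockUP cells, Btla was 2.19-fold lower, and Cd28 and Pdcd1 did not pass the test. With the replicate number as a block all 5 passed it, Cd28 and Icos higher, Pdcd1 and Btla lower, and Ctla4, alone among the inhibitory members, higher. The fit with that block called 3475 of the 13711 genes tested, against 1654 without it. No member passed the test in the DN arm, where 1 of the 13711 genes tested passed it. The summed inhibitory over the summed stimulatory transcripts overlapped between all 4 groups in range. Per kb it was lower in the Foxp3 library than in the Mock library of its number in all 4 pairs of each arm. Without gene length it was higher in all 4 pairs of the UP arm and lower in all 4 of the DN arm.

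Library totals ran from 9389477 to 13226590 counts. Foxp3 checked the labels. It stood at 15.2, 20.95, 29.5 and 28.7 CPM (counts scaled to a common library size, with edgeR's TMM factors) in Foxp3UP replicates 1 to 4, against 11.5, 13.0, 13.7 and 11.5 CPM in MockUP replicates 1 to 4. Every Foxp3UP library lay above every MockUP library, and the difference passed edgeR's quasi-likelihood test (log2 fold change 0.92 ± 0.17 SE, adjusted p = 0.00233). Foxp3DN cells held 10.3 ± 0.13 CPM of Foxp3, against 12.9 ± 1.52 CPM in MockDN cells (SD, n = 4 each, log2 fold change -0.33, edgeR adjusted p = 1), and every Foxp3DN library lay below every MockDN library. The 6 CD8 T cell markers, Cd8a and Cd3e among them, summed to between 3183 and 5906 CPM in the 8 libraries of the UP arm. Of the 3 CD4 T cell markers, Cd4 averaged 0.489 CPM in Foxp3UP and 0.250 CPM in MockUP cells, too low to be tested. Zbtb7b averaged 10.3 and 6.79 CPM in these groups (log2 fold change 0.60, edgeR adjusted p = 0.0595). Cd40lg averaged 6.93 and 16.4 CPM and was called lower in Foxp3UP cells (log2 fold change -1.23, edgeR adjusted p = 0.0014). On the first principal component replicates 1 and 2 lay below replicates 3 and 4 in each group, in MockUP at -26.4 and -13.0 against 22.9 and 24.0. The main fit has no term for this split. MockUP replicate 2 stood apart from the other 15 libraries on the second principal component, and calls of the UP arm are also given without it. In bulk libraries such as these, fewer cells that express a gene and less of its RNA per cell cannot be told apart.

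Cd28, the receptor of the primary co-stimulatory signal, is gene ENSMUSG00000026012 on the plus strand of chromosome 1 (mm10, 60716800 to 60773359, 6122 exonic bases). Its level was 736, 866, 828 and 944 CPM in Foxp3UP replicates 1 to 4, against 621, 668, 767 and 839 CPM in MockUP replicates 1 to 4. It was 784, 686, 710.0 and 845 CPM in Foxp3DN replicates, against 776, 685, 668 and 759 CPM in MockDN replicates. All 4 groups overlapped, with mean CPM of 843 ± 86.6 (Foxp3UP), 724 ± 97.9 (MockUP), 756 ± 72.7 (Foxp3DN) and 722 ± 53.3 (MockDN; SD, n = 4 each).

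Icos, the inducible co-stimulator, is gene ENSMUSG00000026009 on the plus strand of chromosome 1 (60977927 to 61000320, 3430 exonic bases). It had 641, 841, 914 and 991 CPM in Foxp3UP replicates 1 to 4, against 326, 346, 478 and 511 CPM in MockUP replicates 1 to 4. The lowest Foxp3UP library lay above the highest MockUP library. In the DN arm Icos had 489, 373, 433 and 398 CPM in Foxp3DN replicates, against 469, 352, 396 and 357 CPM in MockDN replicates, and these groups overlapped. By mean level the order was 847 ± 150 CPM in Foxp3UP, 423 ± 50.1 in Foxp3DN, 415 ± 92.6 in MockUP and 394 ± 54.2 in MockDN cells (SD, n = 4 each), and the last 3 ranges overlapped one another.

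Ctla4, the inhibitory counterpart of Cd28, is gene ENSMUSG00000026011 on the plus strand of chromosome 1 (60887000 to 60915832, 2330 exonic bases). It had 1648, 1777, 1796 and 2243 CPM in Foxp3UP replicates 1 to 4, against 872, 836, 893 and 1103 CPM in MockUP replicates 1 to 4. In the DN arm it had 971, 846, 787 and 892 CPM in Foxp3DN replicates, against 1041, 898, 774 and 841 CPM in MockDN replicates. Every Foxp3UP library lay above each of the 12 others, and the remaining 3 groups overlapped at means of 926 ± 120 CPM in MockUP, 874 ± 77.9 in Foxp3DN and 889 ± 114 in MockDN cells (SD, n = 4 each). A predicted gene, Gm37039, lies within Icos and a ribosomal pseudogene, Rpl18-ps1, within Ctla4, each on the same strand, and the deposited counts of each were at most 36 in any library.

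Pdcd1, which encodes PD-1, is gene ENSMUSG00000026285 on the minus strand of chromosome 1 (94038305 to 94052553, 1930 exonic bases). It had 329, 349.6, 324 and 389 CPM in Foxp3UP replicates 1 to 4, against 442, 372, 479 and 529.7 CPM in MockUP replicates 1 to 4. Each Foxp3UP library was below the MockUP library of its own number, but the highest Foxp3UP library passed the lowest MockUP library. In the DN arm Pdcd1 had 421, 415, 303 and 354 CPM in Foxp3DN replicates, against 462, 528, 316 and 387 CPM in MockDN replicates. Here too each Foxp3DN library was below the MockDN library of its number, while the groups overlapped widely.

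Btla, whose product binds HVEM, is gene ENSMUSG00000052013 on the plus strand of chromosome 16 (45224315 to 45257670, 3396 exonic bases). Its counts ran from 110 to 439 per library. It had 9.69, 13.6, 16.9 and 16.4 CPM in Foxp3UP replicates 1 to 4, against 21.6, 28.5, 38.7 and 35.4 CPM in MockUP replicates 1 to 4. In the DN arm it had 28.8, 32.5, 33.8 and 34.0 CPM in Foxp3DN replicates, against 28.3, 23.0, 34.4 and 32.7 CPM in MockDN replicates. All 4 Foxp3UP libraries lay below the 12 others, and the remaining 3 groups overlapped.

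**Figure D1:**
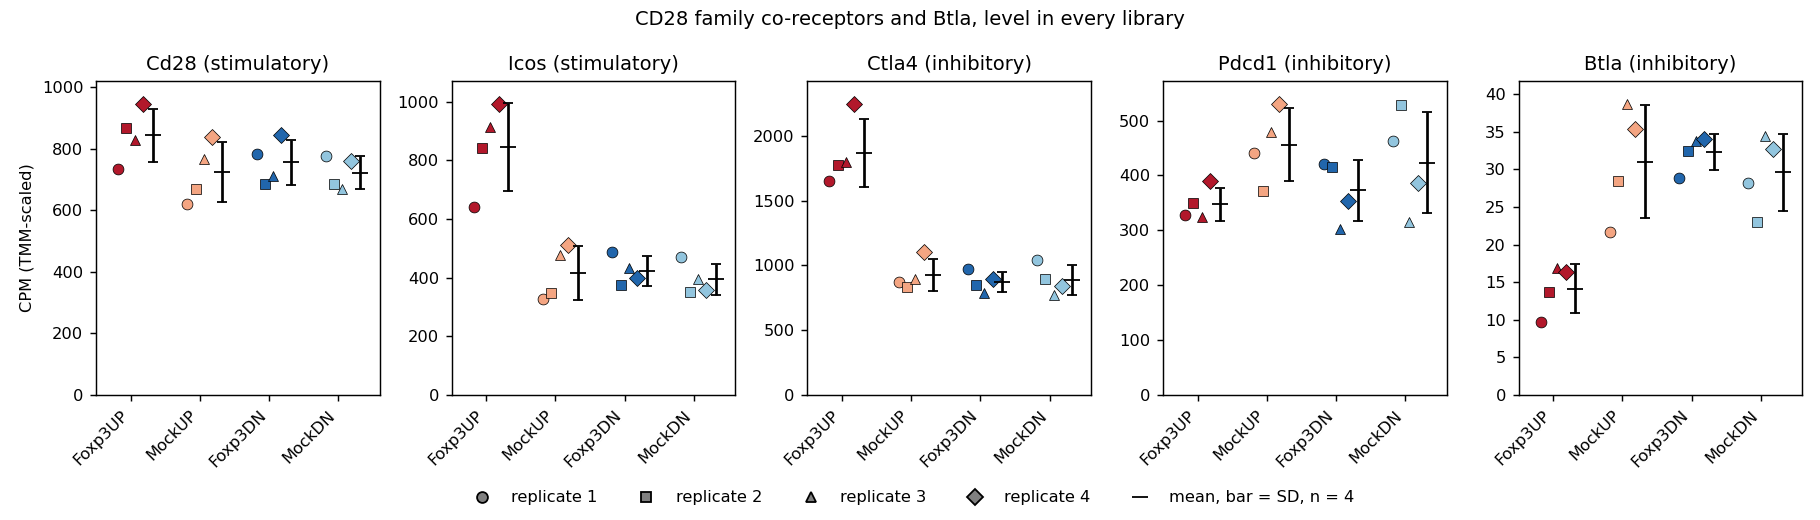
Level of each co-receptor in every library, in CPM after TMM scaling, by group, with the mean and SD of each group of 4 beside its points. Icos and Ctla4 stand above all other libraries and Btla below them in the Foxp3UP libraries, while Cd28 and Pdcd1 overlap between groups.

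Libraries of the same number moved together in the UP arm. Replicate 1 was the lowest of its group for Cd28, Icos and Btla in both Foxp3UP and MockUP, and replicate 4 was the highest of its group for Cd28, Icos, Ctla4 and Pdcd1 in both. Foxp3UP replicate 1 also had the lowest Foxp3 of its group. Icos in Foxp3UP cells ranged from 641 to 991 CPM, with a coefficient of variation of 17.7%.

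Foxp3UP cells were then tested against MockUP cells. Of the 5 genes 3 were called at an adjusted p under 0.05, 2 higher and 1 lower, where 12.1% of the 13711 genes tested were called. Icos was higher by a log2 fold change of 1.03 ± 0.16 SE (edgeR adjusted p = 0.000808). Ctla4 was higher by 1.01 ± 0.12 SE on that scale (edgeR adjusted p = 0.000107). Btla fell by 1.13 ± 0.19 SE in Foxp3UP cells on that scale (edgeR adjusted p = 0.00124). These 3 genes did not overlap between the groups. The share of all genes that did not overlap was not counted. Without overlap, a two-sided exact permutation test of 4 against 4 libraries always gives its smallest p, 0.0286. It therefore restates the separation and adds nothing to it. The median log2 fold change of the 5 genes was 0.22, against 0.00 over all genes tested.

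Cd28 and Pdcd1 did not pass this test, and their calls depended on whether replicate numbers were used as pairs. Cd28 was at a log2 fold change of 0.22 (95% interval -0.01 to 0.46, edgeR adjusted p = 0.217), and Pdcd1 at -0.39 (95% interval -0.71 to -0.07, edgeR adjusted p = 0.103). With the replicate number as a block all 5 genes were called, Cd28 at 0.22 (edgeR adjusted p = 0.0151) and Pdcd1 at -0.38 (edgeR adjusted p = 0.00347). The block fit called 3475 of the 13711 genes tested, against 1654 without the block. The differences of Cd28 and Pdcd1 went the same way in each of the 4 numbered pairs. Without MockUP replicate 2 the calls were 4, since Pdcd1 was then at -0.48 (edgeR adjusted p = 0.0421). Icos was there at 0.95, Ctla4 at 0.96 and Btla at -1.18, and 1830 genes were called over all. Replicates 1 and 2 alone left only Ctla4 called, with Icos at 1.14 (edgeR adjusted p = 0.0755) and Btla at -1.10 (edgeR adjusted p = 0.102). Over all genes they gave 31 calls. Replicates 3 and 4 alone called Pdcd1 as well, at -0.52 (edgeR adjusted p = 0.00624), among 3025 calls over all genes.

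Foxp3DN cells against MockDN cells gave no call among the 5 genes, where 0.00729% of the genes tested were called. The log2 fold changes were 0.07 for Cd28, 0.10 for Icos, -0.02 for Ctla4, -0.18 for Pdcd1 and 0.12 for Btla. Each had an edgeR adjusted p of 1, 0 of the 5 had an unadjusted p under 0.05, and DESeq2 also called 0. The 95% interval was -0.23 to 0.44 for Icos, -0.28 to 0.24 for Ctla4 and -0.26 to 0.51 for Btla. Each of these excludes a change of the size seen in the UP arm.

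The difference between the arms was tested directly, as the log2 fold change in the UP arm minus that in the DN arm. It was called for 3 of the 5 genes, where 1.83% of the genes tested were called. It was 1.04 ± 0.18 SE for Ctla4 (edgeR adjusted p = 0.00612), 0.92 ± 0.23 SE for Icos (edgeR adjusted p = 0.0459) and -1.26 ± 0.27 SE for Btla (edgeR adjusted p = 0.0233). Ctla4 kept its call without any single library, but Icos lost it without Foxp3UP 2, 3 or 4, Foxp3DN 2, 3 or 4, or MockDN 1, 2 or 4, with adjusted p up to 0.104. Btla lost it without Foxp3DN 4 (edgeR adjusted p = 0.053) or MockDN 1 (edgeR adjusted p = 0.0525). For Cd28 the difference was 0.15 (95% interval -0.18 to 0.49) and for Pdcd1 -0.21 (95% interval -0.65 to 0.24), and neither was called.

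Set directly beside Foxp3DN cells, Foxp3UP cells showed the same 3 calls, 2 higher and 1 lower of 5, where 11.8% of the genes tested were called. Ctla4 was at a log2 fold change of 1.09 ± 0.12 SE (edgeR adjusted p = 4.41e-05), Icos at 1.00 ± 0.16 SE (edgeR adjusted p = 0.000873) and Btla at -1.19 ± 0.19 SE (edgeR adjusted p = 0.000854). Cd28 at 0.16 and Pdcd1 at -0.10 were not called. In replicates 1 and 2 alone Icos was not called either, at 0.77 (edgeR adjusted p = 0.143). This comparison and that with MockUP share the Foxp3UP libraries. Between the controls, MockUP against MockDN, 0 of the 5 were called by edgeR or by DESeq2 and 0 had an unadjusted p under 0.05, where 0.00729% of the genes tested were called. The largest of these log2 fold changes was 0.11, for Pdcd1, with a 95% interval of -0.21 to 0.42. The 2 sets of replicates went opposite ways here, with all 5 genes below 0 in replicates 1 and 2 and above 0 in replicates 3 and 4, where Pdcd1 was at 0.52 and Icos at 0.39 (edgeR adjusted p = 0.118 and 0.0528).

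**Figure D2:**
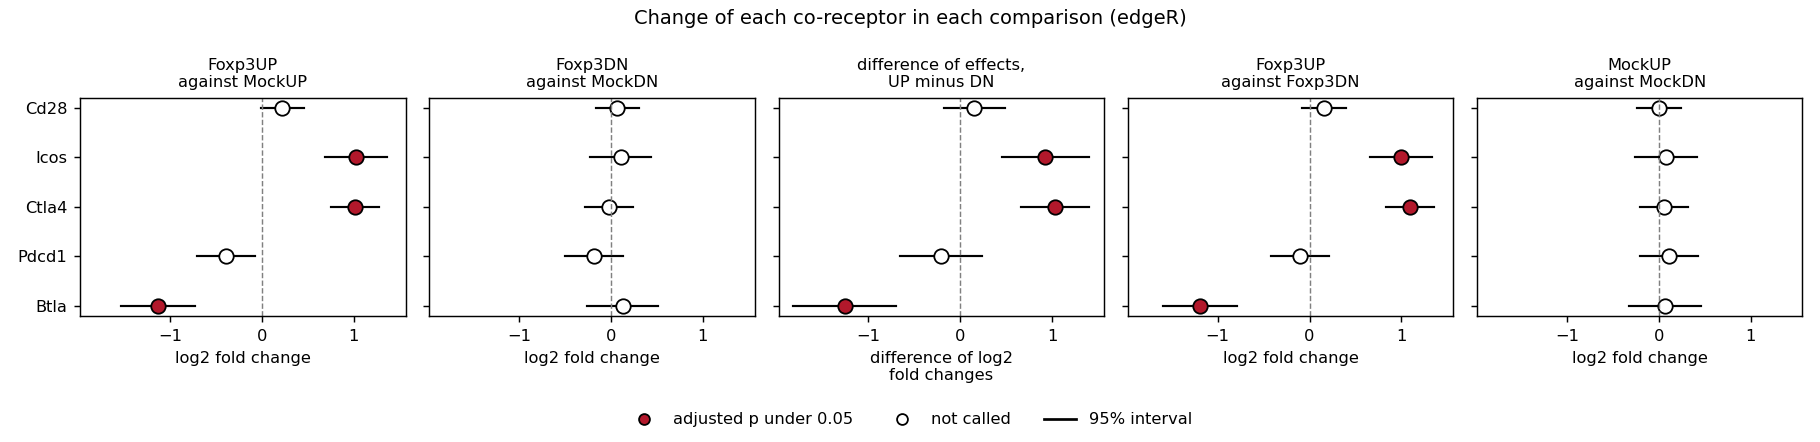
Log2 fold change of each co-receptor in each comparison, with its 95% interval from edgeR; filled points passed an adjusted p of 0.05. Icos and Ctla4 lie near 1 and Btla near or below -1 wherever Foxp3UP cells enter as the numerator, and all 5 genes lie near 0 where Foxp3DN is set against MockDN and where the Mock groups are set against each other over all replicates.

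Levels can be set between genes only per length, as CPM per kb of exonic sequence. On that scale Ctla4 led in every group, with averages of 801 ± 111 CPM per kb (Foxp3UP), 397 ± 51.5 (MockUP), 375 ± 33.4 (Foxp3DN) and 381 ± 48.8 (MockDN; SD, n = 4 each). Icos averaged 247 CPM per kb in Foxp3UP cells, Pdcd1 180.2 and Cd28 138. The lowest Icos library in that group, at 187 CPM per kb, lay within the range of Pdcd1, and every Cd28 library lay below Pdcd1. In MockUP cells Pdcd1 averaged 236 CPM per kb and stood above Icos at 121 and Cd28 at 118, whose ranges overlapped each other. Btla was the lowest throughout, at 4.17 CPM per kb in Foxp3UP and 9.14 in MockUP cells.

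As shares of the 5 genes' counts per kb, Ctla4 made up 58.4% in Foxp3UP, against 45.1% in MockUP cells, and 45.5% in Foxp3DN, against 45.3% in MockDN cells. Icos made up 17.96% in Foxp3UP, against 13.6% in MockUP cells. Pdcd1 made up 13.23% in Foxp3UP, against 26.8% in MockUP cells, and 23.4% in Foxp3DN, against 25.9% in MockDN cells. Cd28 made up 10.1% in Foxp3UP, against 13.4% in MockUP cells, and Btla 0.303% in Foxp3UP, against 1.03% in MockUP cells. A share falls when another member gains, and the lower shares of Cd28 and Pdcd1 stand beside levels that were not called in the main fit. The fit with the replicate block called the level of Cd28 higher and that of Pdcd1 lower.

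The sum of the inhibitory members over that of the stimulatory members, per kb, was 2.58 ± 0.228 in Foxp3UP and 2.71 ± 0.281 in MockUP cells, and 2.35 ± 0.241 in Foxp3DN and 2.62 ± 0.357 in MockDN cells (SD, n = 4 each, no test). The libraries ran from 2.35 to 2.87 in Foxp3UP, against 2.43 to 3.10 in MockUP, and from 2.08 to 2.66 in Foxp3DN, against 2.25 to 3.10 in MockDN. The ranges overlapped in each arm, while within the numbered pairs the Foxp3 library was below its Mock library in 4 of 4 in the UP arm and 4 of 4 in the DN arm. On the CPM scale, without gene length, the order in the UP arm turned round, with 1.32 in Foxp3UP and 1.25 in MockUP cells and the Foxp3UP library above its Mock library in 4 of 4 pairs. In the DN arm it was below in 4 of 4 on that scale too. The receptor pair that shares CD80 and CD86 did separate: Ctla4 over Cd28 per kb ran from 5.39 to 6.24 in Foxp3UP libraries, against 3.06 to 3.69 in MockUP libraries, and from 2.77 to 3.26 in Foxp3DN, against 2.91 to 3.53 in MockDN libraries. Icos over Cd28 per kb, a ratio within the stimulatory members, was 1.78 ± 0.18 in Foxp3UP and 1.02 ± 0.0974 in MockUP cells, and 1.00 ± 0.125 in Foxp3DN and 0.974 ± 0.115 in MockDN cells (SD, n = 4 each). This ratio separated in the UP arm too, at 1.555 to 1.97 in Foxp3UP and 0.925 to 1.11 in MockUP libraries.

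**Figure D3:**
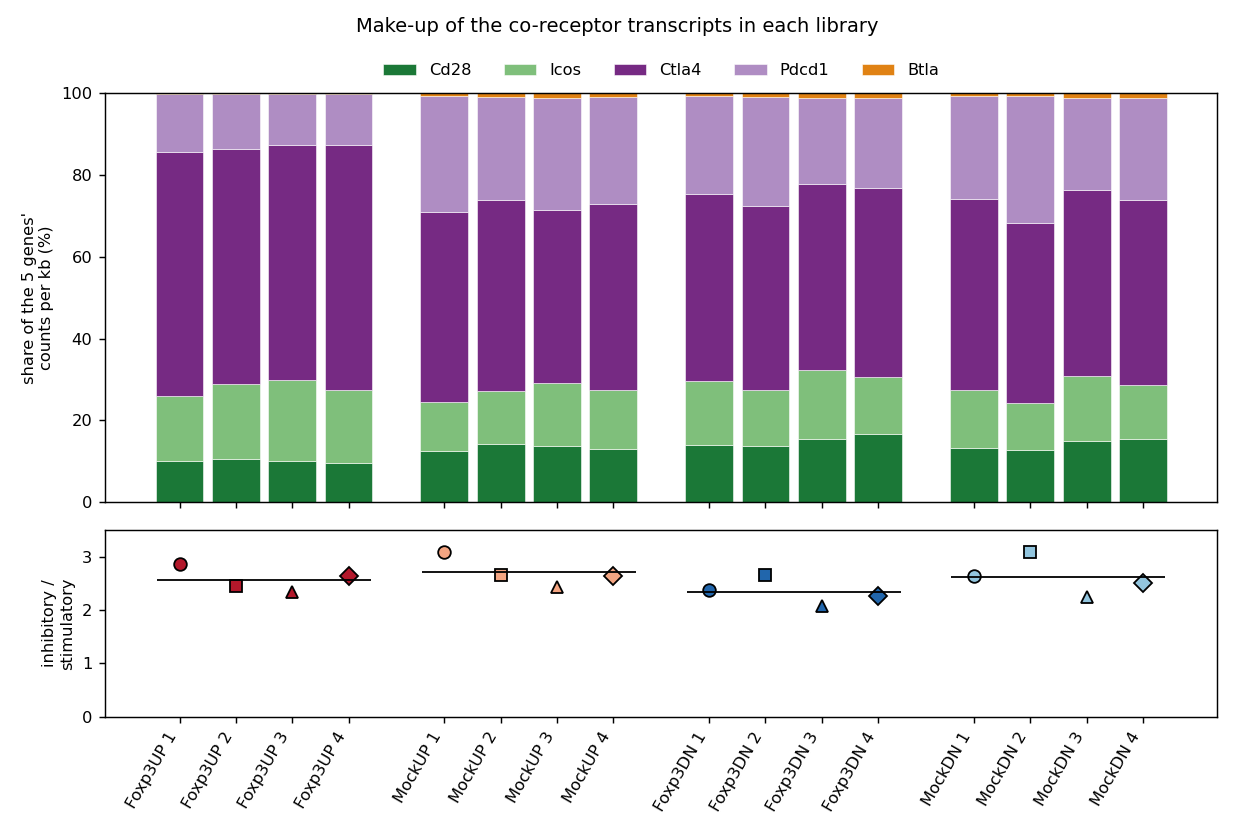
Top, share of each gene in the summed counts per kb of the 5 co-receptors, in percent, for each of the 16 libraries; bottom, inhibitory over stimulatory sum per kb in each library, with the group mean as a line. Ctla4 takes 58.4% on average in Foxp3UP libraries and 45.1% to 45.5% in the other groups, while the range of the ratio overlaps between all 4.

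Cd28, Ctla4 and Icos lie in that order on the plus strand, and from the first to the end of the last they span 283.5 kb. By the first base of the deposited gene models, the Ctla4 start is 170.2 kb beyond that of Cd28, and the Icos start 90.9 kb beyond that of Ctla4. RefSeq places the Ctla4 start 22025 bases further in, so these distances depend on the model used. Of the 11 other named genes within 1000 kb of the cluster 10 were tested. In Foxp3UP against MockUP cells 0 of them were higher and 1 was lower, Nop58, a nucleolar ribonucleoprotein, at a log2 fold change of -0.67 (edgeR adjusted p = 0.0025), where 12.1% of all genes were called. Without MockUP replicate 2, an alternative chosen after seeing the data, 2 of the 10 were called, Wdr12 also being lower. The nearest neighbour tested, Raph1, which binds actin regulators, was at 0.56 (edgeR adjusted p = 0.23), and the 10 ran from -0.67 to 0.56. In Foxp3DN against MockDN cells 0 of the 10 were called by edgeR or by DESeq2, and 0 had an unadjusted p under 0.05. In Foxp3UP against Foxp3DN cells 2 of the 10 were higher and 2 lower, where 11.8% of all genes were called, and Raph1 was among the higher at 1.06 (edgeR adjusted p = 0.0265).

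**Figure D4:**
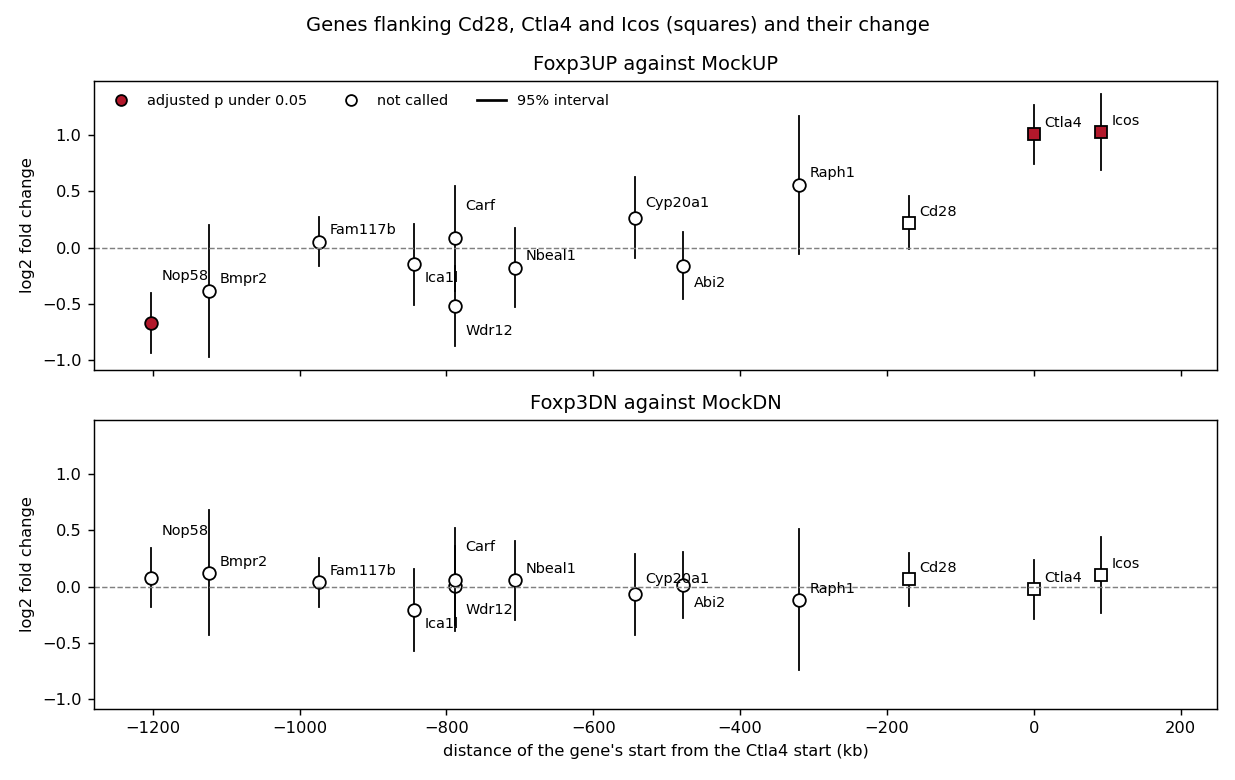
Log2 fold change, with its 95% interval, of the tested genes around Cd28, Ctla4 and Icos (squares) by distance of the gene's start from that of Ctla4, in kb; filled points passed an adjusted p of 0.05 (edgeR). In the UP arm Ctla4 and Icos stand near 1 while Cd28, at 0.22, and the flanking genes do not reach that level.

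The starts of Ctla4 and Btla are shown because these inhibitory genes were called in opposite directions. They are the 250 bases before the RefSeq start on GRCm38.p6, plus strand, 5′ to 3′. RefSeq windows were found for 3 of the 5 genes, the third being Pdcd1. The Ctla4 window is chr1:60908775-60909024, whose RefSeq start lies 22025 bases inside the deposited gene model, and the Btla window is chr16:45224087-45224336. Capitals mark the match to a searched motif.
Ctla4: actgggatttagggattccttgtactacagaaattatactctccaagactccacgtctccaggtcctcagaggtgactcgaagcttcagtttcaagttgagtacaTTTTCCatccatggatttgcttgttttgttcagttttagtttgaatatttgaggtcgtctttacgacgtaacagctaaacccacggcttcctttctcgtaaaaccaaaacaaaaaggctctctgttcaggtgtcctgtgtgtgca
Btla: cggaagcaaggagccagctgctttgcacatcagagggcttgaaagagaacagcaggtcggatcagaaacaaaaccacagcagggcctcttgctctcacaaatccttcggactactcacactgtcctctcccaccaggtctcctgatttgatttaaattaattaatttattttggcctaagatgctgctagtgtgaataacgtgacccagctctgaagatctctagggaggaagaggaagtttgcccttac

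The motifs searched, on both strands, were the forkhead motif TGTTTNC, the NFAT core GGAAAA, the AP-1 motif TGANTCA and the TATA box TATAAA, and no 2 matches overlapped. The Ctla4 window held 1 match, to the NFAT core on the minus strand, at positions -145 to -140 counted from the start. Btla and Pdcd1 held 0. Of 32851 mouse RefSeq windows of that length 20.4% held the NFAT core, 17.8% the forkhead motif, 12.4% the TATA box and 6.75% the AP-1 motif. A match describes letters in the window and is not a measured binding site.

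Likeness over the 16 libraries was measured as the root mean square difference of log2 CPM after each gene was centred, among 9981 genes with a symbol and an average log2 CPM of at least 1. Icos and Ctla4 were each other's nearest gene of all, at 0.162 log2 units. Icos was next nearest to Tnfrsf4, the receptor OX40, at 0.189, and to Serpinb1a, a protease inhibitor, at 0.19. Ctla4 was next nearest to Ccr2, a chemokine receptor, at 0.172, and to Txnip, a regulator of thioredoxin, at 0.183. For Btla the nearest were Pus7, a pseudouridine synthase, at 0.131, Ppan, a ribosome assembly factor, at 0.149, and Ifrd2 at 0.16, all of which fell in Foxp3UP against MockUP cells by 0.93 to 1.05 on the log2 scale (edgeR adjusted p 0.00265 to 0.00893). Cd28 was nearest to Rsbn1l at 0.0863, Arhgap15 at 0.0938 and Srpk2 at 0.0948, and Pdcd1 to Abhd10 at 0.165, Rad1 at 0.17 and Serpinb9 at 0.178, none of which was called. A gene that varies little, such as Cd28, is close to many genes on this measure, and the libraries share their group differences.

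Ligands and other genes of the pathway were described by lists, whose counts stand against the 12.1% called over all genes in Foxp3UP against MockUP cells. Of the 6 ligands 3 were called higher in Foxp3UP than in MockUP cells and 0 lower, with a list median of 0.45 on the log2 scale. Cd86, a ligand of CD28 and CTLA-4, had 53.1 ± 11.4 CPM in Foxp3UP and 26.5 ± 7.82 CPM in MockUP cells (log2 fold change 1.00 ± 0.18 SE, edgeR adjusted p = 0.00189). Cd80, the second such ligand, had 30.6 ± 2.80 CPM in Foxp3UP and 21.6 ± 2.54 CPM in MockUP cells (log2 fold change 0.50, edgeR adjusted p = 0.0194). Pdcd1lg2, the PD-1 ligand PD-L2, had 22.8 ± 1.82 CPM in Foxp3UP and 12.7 ± 1.69 CPM in MockUP cells (log2 fold change 0.84, edgeR adjusted p = 0.0118). The other 3 ligands, named to complete the list, were not called: Cd274 (PD-L1) was at 0.39, Tnfrsf14 at 0.31 and Icosl at 0.01. Cd86 was not called against Foxp3DN cells, where it averaged 46.5 ± 5.83 CPM (log2 fold change 0.19, edgeR adjusted p = 0.521), whereas Cd80 and Pdcd1lg2 were, at 0.44 and 0.91 (edgeR adjusted p = 0.0378 and 0.0072). MockDN cells averaged 42.5 ± 4.15 CPM of Cd86, so MockUP was the lowest of the 4 groups for this gene. Between MockUP and MockDN 0 of the 6 ligands were called by edgeR, and 1 had an unadjusted p under 0.05. The difference between the arms was called for 0 of the 6 ligands by edgeR and for 1 by DESeq2, and 3 had an unadjusted p under 0.05.

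Ligands are mostly products of antigen-presenting cells, and of 11 tested markers of such cells 2 were called higher and 0 lower in the same comparison. Those 11 ran from -0.30 (Csf1r) to 1.07 (Itgam, not called) on the log2 scale, with a median of 0.47, against 0.00 over all genes. The 7 macrophage or monocyte markers summed to 49.9 to 69.7 CPM in Foxp3UP libraries, against 31.4 to 50.1 CPM in MockUP libraries, with Cd68 higher by 0.86 on the log2 scale (edgeR adjusted p = 0.00207). The 8 dendritic cell markers summed to 109 to 141 CPM in Foxp3UP libraries, against 76.6 to 114 CPM in MockUP libraries, with H2-Ab1 higher by 0.82 (edgeR adjusted p = 0.0244). The other tested dendritic cell markers were not called, with Cd74 at 0.47, H2-Aa at 0.098, Xcr1 at 0.022 and Zbtb46 at -0.008. Of the macrophage or monocyte markers not yet named, Cd14 at 0.94, Fcgr1 at 0.64 and Lyz2 at 0.28 were not called either. Of these 15 markers Siglech was at 0 in all 16 libraries, and Clec9a, Flt3 and Adgre1 stayed below 1 CPM in all. Their part in the ligand values was not tested.

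Partners of HVEM besides BTLA were lower or not called. Tnfsf14, the ligand LIGHT, had 16.3 ± 5.54 CPM in Foxp3UP and 40.5 ± 15.8 CPM in MockUP cells (log2 fold change -1.32, edgeR adjusted p = 0.0117). Cd160, an HVEM-binding receptor named to complete the list of 2, was at -0.75 (edgeR adjusted p = 0.0753).

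Of 18 signalling genes downstream of the receptors 2 were called higher in Foxp3UP than in MockUP cells and 0 lower, with a median of -0.03 on the log2 scale. That is 11.1% of the list, close to the 12.1% over all genes. The 2 were Grap2, the adaptor GADS that binds CD28, at 0.45 (edgeR adjusted p = 0.0201), and Prkcq, the kinase PKC-theta recruited by CD28, at 0.23 (edgeR adjusted p = 0.0394). Of the 8 genes of receptor trafficking and turnover 1 was higher and 1 lower, with a median of -0.04. Def6, known from human deficiency to be needed for CTLA-4 trafficking, was at 0.39 (edgeR adjusted p = 0.0153). Trat1, the adaptor TRIM, known to promote CTLA-4 transport to the surface, had 3.83 ± 0.955 CPM in Foxp3UP and 11.0 ± 4.89 CPM in MockUP cells (log2 fold change -1.52, edgeR adjusted p = 0.00192). Trat1 was lower in the cells with more Ctla4, and its difference between the arms was called as well, at -1.81 (edgeR adjusted p = 0.0208).

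The RNA-binding genes that restrain Icos and Ctla4 messages, Rc3h1, Rc3h2 and Zc3h12a, gave 0 calls in 3 by edgeR and 0 by DESeq2, with a median of -0.23 on the log2 scale. Of these 1, Zc3h12a, had an unadjusted p under 0.05 in edgeR, at a log2 fold change of -0.55. Of 12 transcription factors 3 were higher and 0 lower, with a median of 0.00. Besides Foxp3 these were Maf, a driver of Il10, with 13.3 ± 2.73 CPM in Foxp3UP and 2.10 ± 0.414 CPM in MockUP cells (log2 fold change 2.65, edgeR adjusted p = 1.37e-06), and Prdm1, which encodes Blimp-1, with 129 ± 2.44 CPM in Foxp3UP and 75.1 ± 15.3 CPM in MockUP cells (log2 fold change 0.78, edgeR adjusted p = 0.000884). Of 5 tested genes known as outputs of co-stimulation 1 was higher, Il10, at 3.28 (edgeR adjusted p = 5.96e-05), and 0 were lower. Il2, Il2ra, Bcl2l1 and Il21 were not called, and Il4 had too few counts. The 7 lists were chosen with earlier results of these data known and include Foxp3, so their shares are no test of the lists. Over the 7 lists, edgeR called 12 of 54 tested genes (22.2%) in Foxp3UP against MockUP cells, where it called 12.1% of all genes. Without MockUP replicate 2 it called 15, these 12 among them and Cd274, Cd160 and Nfatc2 besides. In Foxp3DN against MockDN cells 0 of the 54 tested genes of these 7 lists were called by edgeR or by DESeq2, and 0 had an unadjusted p under 0.05. Against Foxp3DN cells it also called 12 of the 54, where 11.8% of all genes were called. There 2 further transcription factors were lower in Foxp3UP cells, Tbx21 at -0.38 (edgeR adjusted p = 0.0103) and Nr4a1, an early gene of the antigen receptor signal, at -0.79 (edgeR adjusted p = 0.021).

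**Figure D5:**
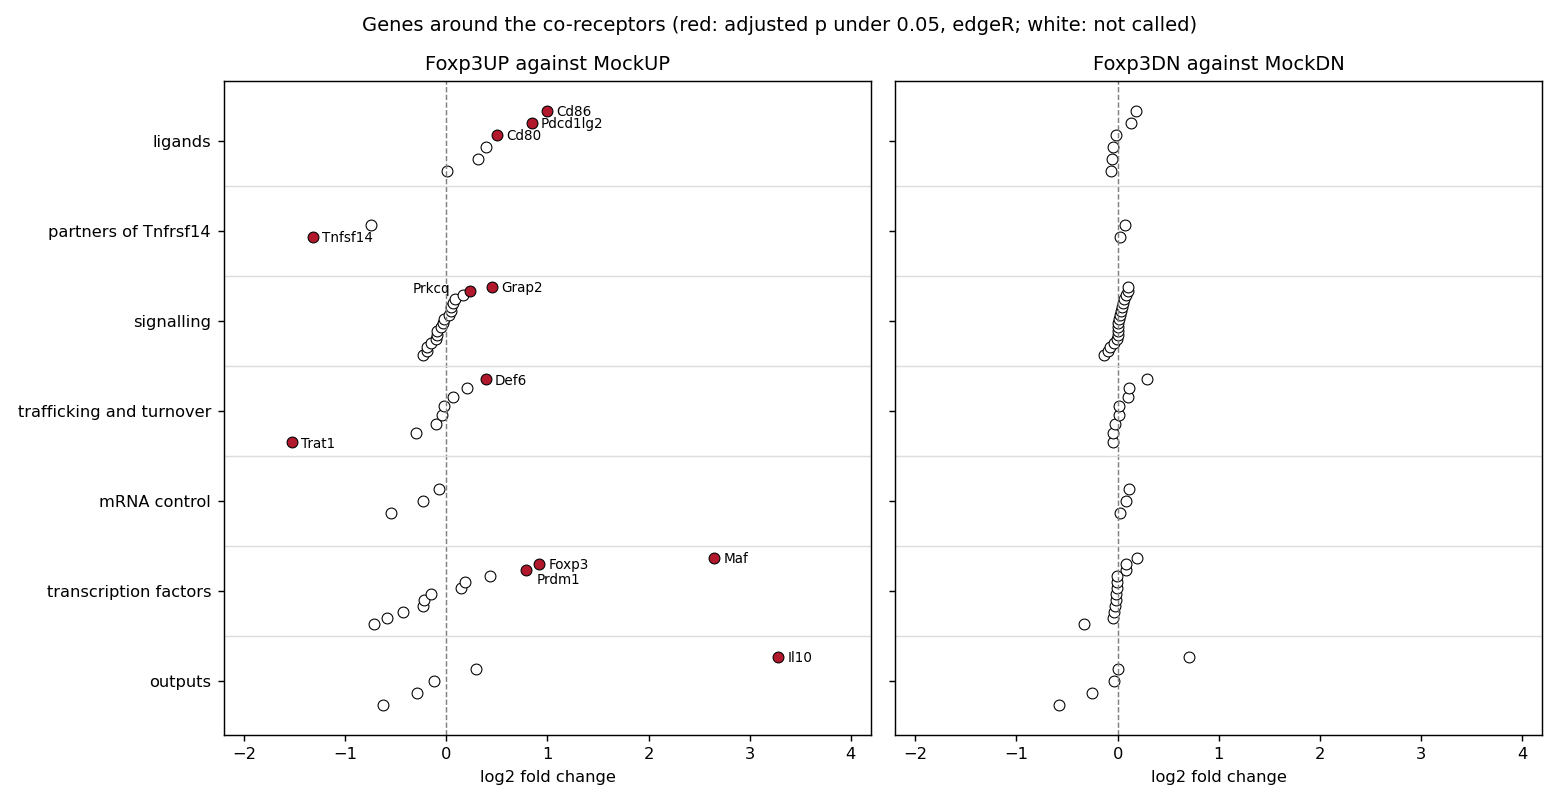
Log2 fold change of the tested genes of 7 lists around the co-receptors, each point 1 gene, in Foxp3UP against MockUP cells (left) and Foxp3DN against MockDN cells (right); filled points passed an adjusted p of 0.05 (edgeR) and are named. On the left 10 points are filled higher and 2 lower, and on the right 0 are filled.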

How the data were processed

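RNA was sequenced from 16 libraries of sorted, transferred CD8 T cells. The deposited table holds the authors' raw read counts, with gene coordinates and exonic lengths, per the file headers. STAR 2.6.1, Subread 1.6.3 and the build mm10 are named in the submitters' processing notes. The sources used here give no counting options, strand setting or annotation release, so overlapping genes may share reads. Of 55573 gene identifiers 55394 were found in GENCODE M21, whose symbols were used. Columns were matched by the sample number in the title.

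Counts were filtered with filterByExpr (minimum count 10, 13711 genes kept), scaled by TMM and tested with the quasi-likelihood F test of edgeR 4.0.16 in R 4.3.3 over all 16 libraries with a term per group. Adjusted p-values are Benjamini-Hochberg over the genes tested, two-sided, called under 0.05. Standard errors are the log2 fold change over the root of F, with a median of 0.176 in Foxp3UP against MockUP. Permutation tests used log2(CPM + 0.5), and likeness used log2 CPM with a prior count of 2. The steps were tested on simulated counts.

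Named genes were the 5 members, Foxp3, up to 4 called genes of each list and the 3 genes most like each member. Members and lists were chosen with earlier results of these data known. Same-numbered Foxp3 and Mock libraries of an arm deviated together from their group means, with correlations across genes of 0.213 to 0.63 (UP) and 0.298 to 0.582 (DN). The highest correlation with a Mock library of another number was lower each time, at 0.0444 to 0.364 (UP) and 0.172 to 0.237 (DN). The margin was narrow for UP replicates 2 (0.213 against 0.173) and 4 (0.398 against 0.364). The labels do not say whether the numbers mark pairs. No 2 columns were identical. Alternatives were RLE factors, library totals, other filters, DESeq2 1.42.0, fits of only the groups compared, a replicate block, replicates 1 and 2 or 3 and 4 alone, and each library left out.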

Additional observations from a re-analysis of the deposited data

Results flagged for a closer look

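For 3 of the 5 co-receptors the effect in the UP arm differed from that in the DN arm by edgeR's test of the difference itself. Over all genes tested, 1.83% were called there. Ctla4 differed by 1.04 on the log2 scale, from 1.01 in Foxp3UP against MockUP and -0.02 in Foxp3DN against MockDN. Icos differed by 0.92, from 1.03 in the UP arm and 0.10 in the DN arm. Btla differed by -1.26, from -1.13 in the UP arm and 0.12 in the DN arm. In some fits without 1 library the calls of Icos (edgeR adjusted p up to 0.104) and Btla (up to 0.053) were lost, and that of Ctla4 was kept in all. Outlying libraries were looked for in 28 sets of 4, the 5 co-receptors, Foxp3 and the inhibitory to stimulatory ratio in each group. Dixon's ratio, the gap from the outermost library to the next over the range, flagged 0. With 4 libraries it flags only extreme gaps. The largest were 0.788 for Ctla4 in MockUP and 0.752 for Ctla4 in Foxp3UP cells.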

How the results depend on the processing

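Of 485 refits of a co-receptor's log2 fold change, 440 kept direction and side of the threshold, 17 lost a call, 4 gained one and 24 changed sign, and 0 of those 24 were called. In the UP arm Icos ran from 0.92 to 1.14, Ctla4 from 0.91 to 1.10 and Btla from -1.27 to -0.99. The causes of the changes below were not tested.

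Over all genes, Foxp3UP against MockUP gave 658 calls with only those groups fitted, 3475 with the replicate block, 31 in replicates 1 and 2, 3025 in replicates 3 and 4, and 1064 to 1978 without 1 library. The difference of effects gave 651 with DESeq2, 1739 with the block, 2 in replicates 1 and 2, 1688 in replicates 3 and 4, and 99 to 518 without 1 library. Foxp3UP against Foxp3DN gave 2492 with only those groups, 2755 with the block, 130 in replicates 1 and 2, 3440 in replicates 3 and 4, and 842 to 1477 without 1 library. Foxp3DN against MockDN gave 0 in replicates 1 and 2 and 3 in replicates 3 and 4. MockUP against MockDN gave 2 without a filter, 8 with DESeq2, 35 in replicates 3 and 4, and 1 to 2 without 1 library. Library totals without TMM split the calls in Foxp3UP against MockUP into 646 higher and 1081 lower genes, where TMM gave 833 and 821.

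Of the 5 co-receptors, the block called 5 and replicates 1 and 2 called 1 in the UP arm. For the difference of effects replicates 1 and 2 called 0, and leaving out 1 library called 1 to 3. In Foxp3UP against Foxp3DN, Icos lost its call in replicates 1 and 2. The block changed no other call of a co-receptor. On the CPM scale the inhibitory to stimulatory ratio was 1.32 for Foxp3UP and 1.25 for MockUP, and 1.09 for Foxp3DN and 1.203 for MockDN cells.

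Signs turned for values near 0 over all replicates. In MockUP against MockDN Cd28 was at -0.0015 with only those groups fitted and -0.0031 with the block. In replicates 1 and 2 Cd28 was at -0.18, Icos at -0.29, Ctla4 at -0.19, Pdcd1 at -0.29 and Btla at -0.037 there, and in replicates 3 and 4 at 0.16, 0.39, 0.30, 0.52 and 0.13, in the same order of genes. Without 1 library that comparison ran from -0.080 to 0.056 for Cd28, -0.044 to 0.16 for Icos, -0.040 to 0.13 for Ctla4, -0.020 to 0.23 for Pdcd1 and -0.065 to 0.19 for Btla. In replicates 3 and 4 Ctla4 was at 0.053 in Foxp3DN against MockDN (-0.089 to 0.054 without 1 library), the Cd28 difference of effects at -0.00072, and Pdcd1 in Foxp3UP against Foxp3DN at 0.094.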
